A study of Homo sapiens with 12 samples.

Results

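The circular RNA (circRNA) hsa_circ_0008285 was followed through RNA immunoprecipitation libraries made from the human triple-negative breast cancer line MDA-MB-231. It is 1 of 6384 circRNAs in the deposited count table and was chosen by its row name, with its levels in these libraries already known. It has been reported under the name circCDYL, with CDYL as its host gene. The table gives no host gene, no coordinates and no sequence, so the circRNA is called by its identifier here. Because the choice rested on its levels, every level and ratio of hsa_circ_0008285 below is a description and no test of it is given.

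The 4 groups of 3 libraries crossed 2 lines with 2 antibodies. Res cells had established resistance to BET inhibitors and stayed under a BET inhibitor until they were harvested, so resistance and the presence of the drug cannot be told apart. Sens cells were the parental line, labelled wild type and untreated. Each line was precipitated with a monoclonal antibody against IGF2BP2 (RIP) or with normal rabbit IgG. The labels do not say whether Res is 1 clone, or whether the numbered libraries came from separate cultures, so the spread between libraries may be technical. The table holds no linear transcripts, so the cell type was not checked against marker genes. In these bulk lysates, fewer cells with the circRNA and less of it per cell cannot be told apart. Libraries of input lysate are not analysed here.

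CircRNAs are closed transcripts made when a downstream splice donor joins an upstream acceptor. They lack free ends and resist exonucleases. IGF2BP2 is an RNA-binding protein of the IGF2 mRNA-binding family that recognises methylated RNA and is known for stabilising and promoting translation of its targets, MYC mRNA among them. BET inhibitors displace bromodomain and extra-terminal proteins from acetylated chromatin. CDYL, the reported host gene, encodes a chromodomain protein of transcriptional repressor complexes. In this assay, RNA recovered with the antibody is read against RNA recovered with IgG, which measures what sticks to the beads or to any antibody.

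The counts of hsa_circ_0008285 were high in 3 of the 4 groups and almost absent from the last. It had 35, 94 and 37 counts in the Res RIP libraries and 22, 46 and 38 counts in the Res IgG libraries. It had 18, 53 and 44 counts in the Sens RIP libraries and 1, 0 and 0 counts in the Sens IgG libraries. Every Res IgG library therefore held more than the 3 Sens IgG libraries together, while the RIP counts of the lines overlapped.

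Library depth was low, at 5179 to 8662 circRNA counts in Res RIP, 3860 to 6036 in Res IgG, 4448 to 5561 in Sens RIP and 1960 to 2989 in Sens IgG. ERCC spike-in transcripts, which were mixed into equal amounts of purified RNA, took 7.51% to 10.9% of the counts in Res RIP, 93.5% to 93.8% in Res IgG, 10.6% to 12.4% in Sens RIP and 97.8% to 97.9% in Sens IgG. The IgG libraries of a line shared most of the circRNAs they detected: 79.6% to 82.5% per pair in Res and 81.6% to 87.0% in Sens. In RIP pairs this share was 28.6% to 31.2% in Res and 25.1% to 27.4% in Sens. A chi-square test over circRNAs, with expected counts under 5 pooled, found a difference beyond sampling noise for 11 of the 12 pairs within groups (p of 0.0014 or lower) and not for Sens RIP libraries 2 and 3 (p = 0.0888). With pooling under 2, which kept more circRNAs apart, all 12 pairs differed. The test takes each count as a separate molecule, so it cannot show that libraries are independent, and they were counted separately as the labels give them.

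Expressed as RPM, reads per 1000000 circRNA counts, hsa_circ_0008285 had 6111, 10852 and 7144 RPM in Res RIP. Their exact 95% binomial intervals were 4260 to 8489, 8778 to 13264 and 5035 to 9834 RPM. In Res IgG it had 5699, 8525 and 6296 RPM, with intervals of 3575 to 8616, 6248 to 11355 and 4459 to 8631. The RIP and IgG ranges of Res overlapped on this scale.

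In Sens RIP the levels were 3237, 11109 and 9892 RPM, with intervals of 1919 to 5111, 8332 to 14506 and 7197 to 13257. Library 1 stood apart there: the highest Sens RIP library exceeded it 3.43-fold and its interval met neither of the others. In Sens IgG the single count was 335 RPM (8.47 to 1863), and the 2 libraries with 0 counts had intervals of 0 to 1880 and 0 to 1296 RPM (3 counts there would be 1531 and 1054 RPM). All of these intervals and limits cover counting error only.

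Group means were 8036 ± 2493 RPM in Res RIP, 6840 ± 1489 RPM in Res IgG, 8079 ± 4238 RPM in Sens RIP and 112 ± 193 RPM for Sens IgG (SD, n = 3 each). From the highest, the order was Sens RIP, Res RIP, Res IgG and Sens IgG. The first 3 did not differ beyond their spread, and only Sens IgG lay below the rest in every library. Ranked by mean RPM, hsa_circ_0008285 was the 11th circRNA in Res RIP, the 4th in Res IgG, the 11th in Sens RIP and the 458th of 475 detected, in a tie, in Sens IgG.

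**Figure D1:**
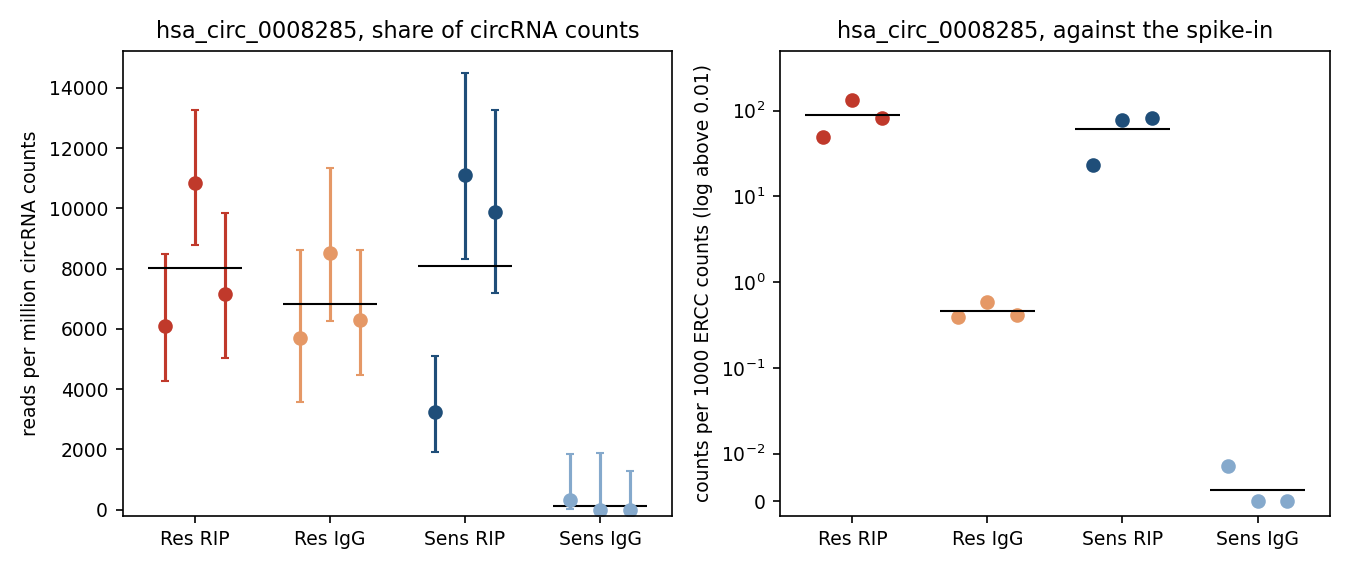
Levels of hsa_circ_0008285 in each library, in RPM (left, with exact 95% binomial intervals) and as counts per 1000 ERCC counts (right, log axis above 0.01, linear below); horizontal lines are group means. On the left Sens IgG alone lies near 0, and on the right both RIP groups lie above both IgG groups.

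The first question was how far the antibody raised hsa_circ_0008285 over IgG in each line. In Res, 166 RIP counts stood against 106 IgG counts, which is 1.22-fold per circRNA count (exact 95% interval 0.953 to 1.58). By replicate number the Res ratios in RPM were 1.07, 1.27 and 1.13. The numbers were not taken to pair libraries, and another matching would give other ratios. Res RIP library 1, at 6111 RPM, lay below Res IgG library 2, at 8525 RPM. In Sens, 115 RIP counts stood against 1 IgG count, 60.6-fold per circRNA count (10.7 to 2416). The wide interval of the Sens ratio comes from its single IgG count.

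The size of these ratios followed the scale used for library size. TMM scaling, a trimmed mean of ratios between libraries, gave effective sizes of 3129 to 5046 in Res RIP, 4934 to 7367 in Res IgG, 2696 to 3078 in Sens RIP and 4993 to 6957 in Sens IgG. On that scale the summed counts gave a RIP to IgG ratio of 2.42 in Res (1.89 to 3.12) and 247 in Sens (43.5 to 9842). The fitted log2 ratios were 1.23 (SE 0.24) in Res and 7.40 (SE 0.51) in Sens. DESeq2, another count model with its own scaling, gave 0.47 (SE 0.34) in Res and 6.49 (SE 1.22) in Sens. The Sens ratio rests on 1 IgG count, and its SE depended on the model. Per circRNA count the fitted log2 ratio was 0.25 (SE 0.24) in Res and 5.69 (SE 0.63) in Sens.

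Against the spike-in, hsa_circ_0008285 had 50, 134 and 82.6 counts per 1000 ERCC counts in Res RIP and 0.393, 0.592 and 0.417 in Res IgG. It had 23.6, 78.4 and 83.2 in Sens RIP and 0.00747, 0 and 0 in Sens IgG. RIP and IgG did not overlap in either line on this scale, and the ratio of summed counts was 190 in Res (148 to 245) and 20648 in Sens (3633 to 822544). This scale counts RNA per amount of purified RNA put into a library, not per amount precipitated. All circRNA counts together were at 8181.43 to 12321.5 per 1000 ERCC counts in Res RIP and at 66.2 to 69.4 in Res IgG. In Sens they were at 7057.69 to 8408.32 in the RIP and at 21.8 to 22.3 in IgG. The ratios of hsa_circ_0008285 on this scale therefore include the shift of the total. Per circRNA count they were 1.22 in Res and 60.6 in Sens.

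As background, the fit across all circRNAs (edgeR's quasi-likelihood test, Benjamini-Hochberg adjusted p under 0.05, TMM sizes) called 33.7% of 1307 tested circRNAs higher in the RIP than in IgG in Res and 39.8% in Sens. The median fitted log2 ratio of all 1307 was 0 in Res and 2.44 in Sens. The Sens median is the fitted value of a circRNA with 1 Sens RIP count and 0 Sens IgG counts, such as hsa_circ_0003889. A ratio of exactly 0, as for hsa_circ_0004208 in Sens, came with 0 counts in both groups. Neither median is therefore a typical level of enrichment. The calls were 440 circRNAs in Res and 520 in Sens. The Sens calls were 326 of 1193 tested without Sens IgG library 1 and 326 of 1191 without Sens IgG library 3. The order of the lines followed the scaling. In Res and Sens the counts were 381 and 164 with circRNA totals, 422 and 345 with TMMwsp factors, 679 and 796 with all counts and 877 and 855 with spike-in totals. From the highest, hsa_circ_0008285 ranked 521st in Res and 18th in Sens.

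**Figure D2:**
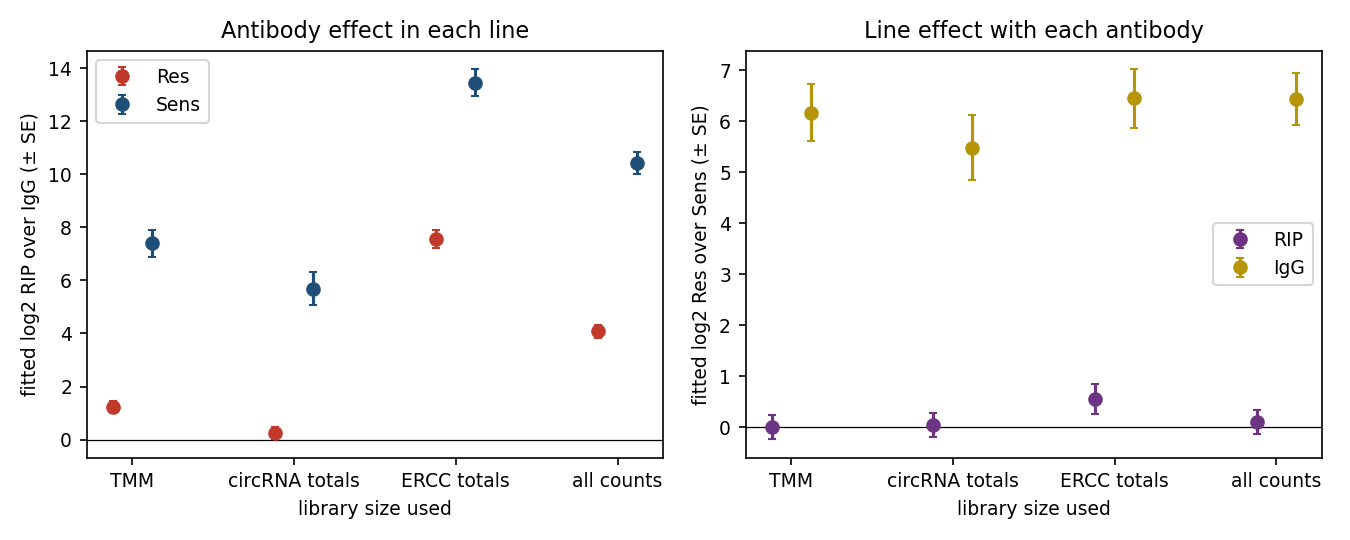
Fitted log2 ratios of hsa_circ_0008285 under 4 choices of library size, RIP over IgG within each line (left) and Res over Sens with each antibody (right). Points are estimates and bars are SE. Ratios to Sens IgG rest on its single count, and their bars are narrower than the exact intervals of the summed counts. The level of the antibody ratio moves with the scale, from 0.25 to 7.56 in Res and from 5.69 to 13.45 in Sens, whereas Res lies below Sens in the left panel and IgG above RIP in the right panel on each of the 4 scales.

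The study asked which circRNAs changed their association with IGF2BP2 in resistance, and the next question was whether the change of hsa_circ_0008285 lay in the RIP or in IgG. On the TMM scale the fitted log2 ratio of Res over Sens was 0.00 (SE 0.24) in the RIP and 6.17 (SE 0.56) in IgG. The difference of the antibody ratios, Res minus Sens, was -6.17 (SE 0.65). Nearly all of that difference was therefore in the IgG libraries. With DESeq2 the log2 ratio in IgG was 6.34 (SE 1.22) and the difference was -6.02 (SE 1.26), so the SE of these values depended on the model. The SE of 0.56 is also too small for a ratio to a single Sens IgG count. On TMM sizes the summed IgG counts gave a ratio of 107 with an exact 95% interval of 18.7 to 4252, which is wider than that SE implies.

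In the RIP, summed counts gave a Res to Sens ratio of 1.09 per circRNA count (0.854 to 1.40) and 1.54 per ERCC count (1.20 to 1.97). The RIP libraries of the lines overlapped on both scales. The sign of the RIP ratio was not stable: of 24 alternative settings, 15 gave a fitted log2 value above 0 and 9 below, between -0.16 and 0.65. Per ERCC count the fitted log2 value was 0.56 (SE 0.30). Both intervals cover counting error only, and a change of the RIP level within the spread of these libraries was not detectable.

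In IgG, summed counts gave a Res to Sens ratio of 54.0 per circRNA count (9.49 to 2154) and 167 per ERCC count (29.3 to 6641). At the share seen in Res IgG, 54.0 counts would stand in the 7794 circRNA counts of Sens IgG, where 1 was found. All circRNA counts together were at 66.2 to 69.4 per 1000 ERCC counts in Res IgG and at 21.8 to 22.3 in Sens IgG, so the ratio of hsa_circ_0008285 exceeded that of the total.

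Among the circRNAs tested, calls between lines were common in IgG and rare in the RIP. Between lines, 49.3% of the 1307 tested were called higher in Res IgG and 2.37% were called in either direction in the RIP, and the antibody ratio was called different for 19.0%. These were 644, 31 and 248 circRNAs. The filter, 2 counts in 3 or more libraries, could be passed through 1 group alone, and IgG libraries shared more of their circRNAs than RIP libraries did. For example, hsa_circ_0005175 had 17 counts in Res IgG and 0 in each other group, and was called higher in Res IgG. The IgG and RIP shares therefore do not compare the antibodies on equal terms. Leaving out a library also changed the number tested. The IgG calls were 313 of 986, 294 of 983 and 285 of 975 without Res IgG library 1, 2 and 3. The RIP calls were 19 of 1183, 18 of 1253 and 16 of 1252 without Res RIP library 2, Sens RIP library 2 and Sens RIP library 3. The antibody ratio was called different for 163 of 1191 without Sens IgG library 3. The median fitted log2 ratio of all tested circRNAs, Res over Sens, was 1.68 in IgG and 0 in the RIP. A RIP ratio of exactly 0, as for hsa_circ_0004208, came with 0 counts in both RIP groups. From the highest, hsa_circ_0008285 ranked 27th in IgG and 604th in the RIP, and its antibody ratio difference ranked 88th from the lowest. These comparisons share their libraries.

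**Figure D3:**
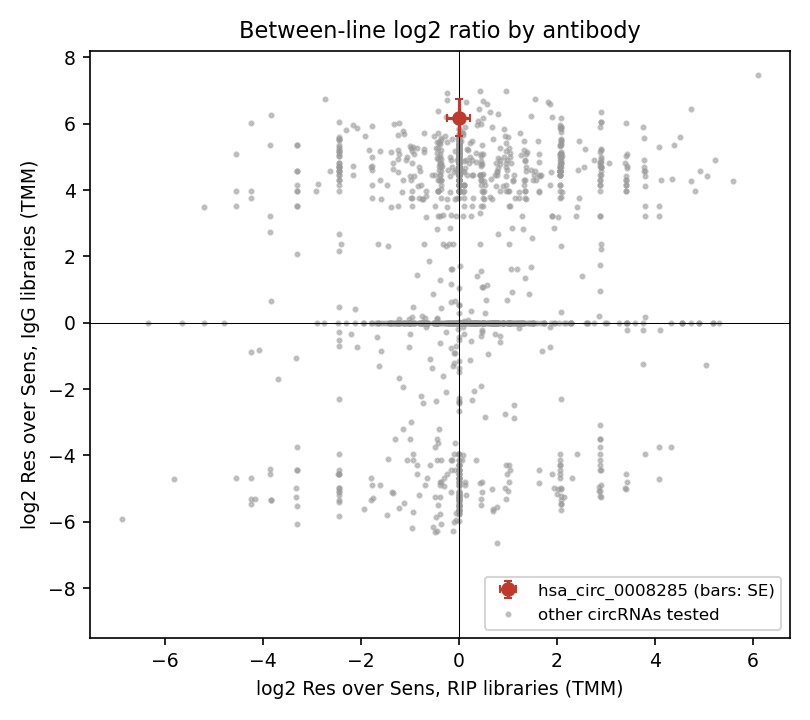
Fitted log2 ratio of Res over Sens for each of 1307 circRNAs, RIP libraries on the horizontal axis and IgG libraries on the vertical axis (TMM sizes). The red point is hsa_circ_0008285 with SE bars, of which the vertical bar rests on a single Sens IgG count. It lies at 0.00 in the RIP and 6.17 in IgG, within a band of circRNAs with high IgG ratios; points in straight rows come from circRNAs with few counts or none in a group.

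The submitters defined enrichment as RIP minus IgG in RPM, and delta enrichment as that value in Res minus that in Sens, a negative delta being read as reduced association. For hsa_circ_0008285 the enrichment was 1196 RPM in Res and 7968 RPM in Sens, and the delta was -6772 RPM (SE 2968). The RIP part of the delta, Res RIP minus Sens RIP, was -43.4 RPM. The IgG part was -6728 RPM, or 99.4% of the delta.

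Single libraries moved these parts. The Res enrichment was -212 RPM without Res RIP library 2, 626 without Res IgG library 1, 2038 without Res IgG library 2 and 2158 without Res RIP library 1. The RIP part was -2465 RPM without Sens RIP library 1 and 1471 without Sens RIP library 2, while the delta stayed between -9193 and -5257 RPM whichever library was left out.

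The delta also depended on the denominator. With all counts of a library, ERCC included, it was -221 RPM (SE 2566), made of 214 from the RIP and -435 from IgG. Per 1000 ERCC counts it was 26.6 (SE 31.0), above 0, made of 27.1 from the RIP and -0.465 from IgG. On those 2 scales the delta was smaller than its SE.

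Low counts in Sens IgG were general: of all 6384 circRNAs, 475 were detected there, 29 of them with a summed count of 1. A count of at most 1 over the Sens IgG libraries, as hsa_circ_0008285 had, was found for 93.6% of the 4274 circRNAs detected in Res RIP. It was found for 92.5% of the 3487 detected in Sens RIP and for 1102 of the 1243 detected in Res IgG (88.7%). Many of the circRNAs detected in the RIP were rare: 45.7% in Res RIP and 52.7% in Sens RIP had a summed count of 1. The RIP shares are therefore not those of circRNAs as abundant as hsa_circ_0008285. At most 1 count in Sens IgG was found for 7 of the 20 circRNAs with the highest mean RPM in Res IgG. The same held for 11 of the 20 highest in Res RIP. Of the 5 circRNAs with at least 100 counts over Res IgG, hsa_circ_0008285 was the 1 with at most 1 count in Sens IgG. That cutoff lay just below its own 106 counts. Under the cutoff, hsa_circ_0000567 had 89 counts in Res IgG and 1 in Sens IgG. With at least 100 counts in Res RIP it was 9 of 18 circRNAs that had at most 1 count in Sens IgG, and in Sens RIP 4 of 13. Of the 20 highest in Sens RIP, 6 had at most 1 count in Sens IgG, and 2 of those 6 had at least 50 counts in Res IgG. The 20 highest lists shared 14 circRNAs between the RIP of Res and of Sens and 5 between their IgG. These lists were drawn after the values were seen.

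The 2 circRNAs whose pattern was most like that of hsa_circ_0008285 were found by Pearson's r over the 12 libraries in log2 CPM, among 151 others with at least 50 counts in all. The libraries share their group structure and depth, and r is given as a description. hsa_circ_0008351 (r = 0.970) had 14, 20 and 7 counts in Res RIP, 7, 10 and 11 in Res IgG, 3, 9 and 6 in Sens RIP and 0 in each Sens IgG library. hsa_circ_0001461 (r = 0.956) had 17, 39 and 23 counts in Res RIP, 12, 22 and 22 in Res IgG, 32, 24 and 17 in Sens RIP and 1 in each Sens IgG library. Both were nearly missing from Sens IgG and present in the other groups, at lower counts than hsa_circ_0008285 in 10 and 8 of the 12 libraries. By Spearman's rho they ranked 5th and 22nd. The files name no host gene for either.

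**Figure D4:**
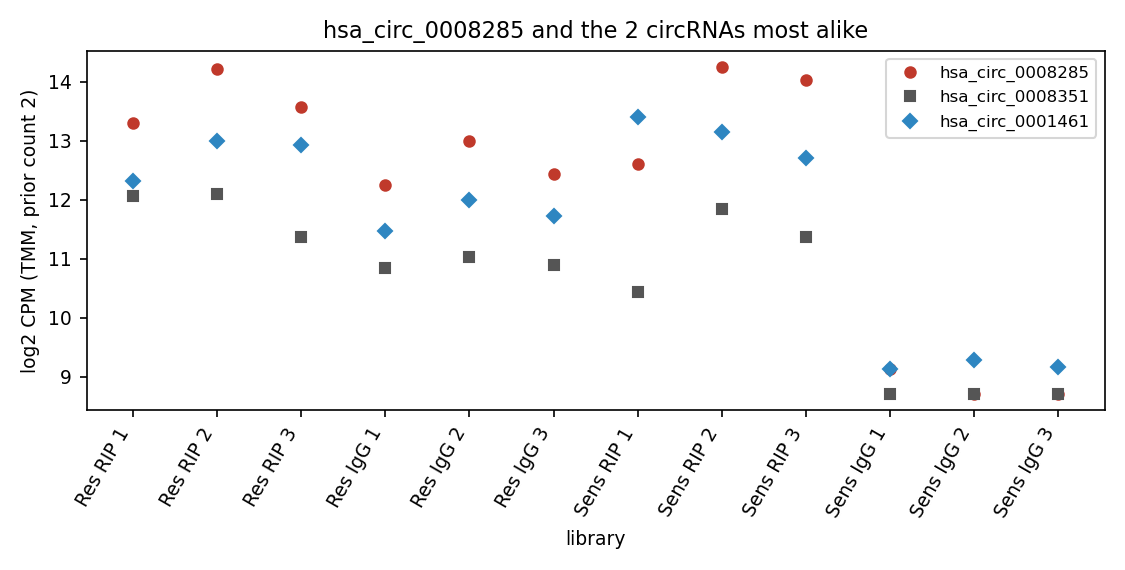
Log2 CPM (TMM sizes, prior count 2) of hsa_circ_0008285, hsa_circ_0008351 and hsa_circ_0001461 in each of the 12 libraries. Each of the 3 is lowest in the Sens IgG libraries, where counts are 0 or 1 and the plotted values reflect the prior count.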

How the data were processed

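RNA immunoprecipitation libraries were grouped by line and antibody from the sample titles. The deposited table holds unscaled counts for 6384 circRNAs and 57 ERCC transcripts, per the file's row names and values. Per the labels' protocols the authors scaled their data to the spike-in with RUVSeq, a scaling the deposited counts do not carry. GRCh37 is listed in the submitters' processing notes. The aligner, circRNA caller and counting rule are not given in the sources used here.

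ERCC rows entered neither library sizes nor tests. The 1307 circRNAs reaching 2 counts in 3 or more libraries were fitted with edgeR 4.0.16 in R 4.3.3 (TMM, quasi-likelihood, 12 libraries, 1 coefficient per group). Its prior degrees of freedom were infinite: the spread was common to all circRNAs of like abundance. The SE is the log2 ratio over the square root of F. For the ratios of hsa_circ_0008285 to Sens IgG it was smaller than the SE from DESeq2 and understates the counting error of the single count. Ratio intervals are exact conditional binomial intervals on summed counts. Alternatives were other scalings and filters, DESeq2 1.42.0, limma-voom (limma 3.58.1), a replicate block, summed IgG libraries and each library left out. The circRNA, the named-circRNA rule (the 2 highest Pearson r) and the lists were chosen with earlier results of these data known. Deviations of same-numbered libraries correlated between -0.0521 and 0.0503. At these low counts sampling noise can hide a shared deviation, so this cannot exclude pairing. The numbers were not taken to pair libraries, and the replicate block is the alternative that does so.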

Additional observations from a re-analysis of the deposited data

Results flagged for a closer look

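The effect of the antibody differed between Res and Sens for 248 of 1307 circRNAs by edgeR's interaction test (Benjamini-Hochberg adjusted p under 0.05). No test of its own is given for hsa_circ_0008285, which was chosen with its levels in these libraries known.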

How the results depend on the processing

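For hsa_circ_0008285 the fitted log2 difference of the antibody ratios stayed below 0 in all 24 alternative settings. It lay between -7.74 without Sens IgG library 1 and -5.44 with circRNA totals. Without Sens IgG library 3 it was -5.45. Leaving out 1 library at a time gave log2 RIP over IgG of 0.72 to 1.44 in Res and 6.57 to 8.85 in Sens, log2 Res over Sens of -0.11 to 0.65 in the RIP and 5.44 to 7.72 in IgG, and a delta of -9193 to -5257 RPM. Without Sens IgG library 1 the Sens IgG group is at 0, so those fitted values are no bounds. The log2 RIP over IgG in Res moved to 0.25 with circRNA totals, 4.09 with all counts, 7.56 with spike-in totals and 0.47 with DESeq2, and it turned to -0.13 where at least 10 counts in 3 libraries were asked for, which left 111 circRNAs for the TMM factors. That in Sens moved to 6.46 with TMMwsp, 5.69 with circRNA totals, 10.42 with all counts, 13.45 with spike-in totals and 5.69 with that filter. The log2 Res over Sens in IgG moved to 5.56 with TMMwsp, 5.49 with circRNA totals, 5.67 with that filter and 5.71 with limma-voom. The delta was -221 RPM with all counts, -6120 as CPM on TMM sizes and, turned, 26.6 per 1000 ERCC counts. With the replicate block the log2 difference was -6.10. The block gave 17 calls against 31 between the RIP groups over all circRNAs and moved no other count by over 1.5 times. Summing Sens RIP libraries 2 and 3, an alternative chosen after seeing the data, gave a difference of -6.22 and a delta of -5572 RPM.

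The difference of antibody ratios, called for 248 of 1307 circRNAs, was called for 116 of 6384 with no filter. With filters of 5 and 10 counts it was called for 137 of 370 and 57 of 111 tested, which are larger shares. It was called for 116 of 1307 with DESeq2 and 802 of 1307 with limma-voom. Over the 24 settings, higher calls for RIP over IgG in Res ran from 48 of 111 tested to 877 of 1307 (440 of 1307 as reported). They ran from 60 of 111 to 994 of 1307 in Sens (520) and from 52 of 111 to 657 of 1307 between the IgG groups (644). Calls between the RIP groups ran from 16 of 1252 to 58 of 1307 (31). The lows of 111 came from the filter of 10 counts and are not the lowest shares: DESeq2 called 131, 132 and 211 of 1307. With no filter 376, 317 and 610 of 6384 were called, which are smaller shares still. In Sens IgG, 1 count equals 335 to 510 RPM, which limits any ratio to that group.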

Other observations

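The counts behind the IgG level of hsa_circ_0008285 had another distribution than those behind its RIP level. Of 1243 circRNAs detected in Res IgG, 72.0% were found in all 3 libraries and 4.75% had a summed count of 1; the commonest sum was 7. In Res RIP, 16.3% of 4274 detected circRNAs were found in all 3 libraries, 45.7% had a summed count of 1, and 1 was the commonest sum. Sens was alike in this, with 77.7% of 475 in all 3 IgG libraries, a commonest sum of 7, and 13.3% of 3487 in all 3 RIP libraries. The counting intervals given for hsa_circ_0008285 treat each count as a separate molecule; whether the IgG counts are separate molecules was not tested.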
